A study of Saccharomyces cerevisiae with 32 samples.

Results

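The genes described here are 10 of the 6696 open reading frames (ORFs) counted in 8 natural isolates of the budding yeast Saccharomyces cerevisiae. They encode the enzymes that make and break down trehalose and glycogen, and they were picked by function through their systematic names, with earlier results of these data known. No measured value enters the rule. All 10 passed the filters on low counts in mRNA, in ribosome footprints and in the ratio of the 2.

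The isolates are labelled CPI, BTT, BPL, CQC, CMP, BAN, BED and AMH. All carry the label "Wild type", and all were grown in SC medium. Each gave a pair of RNA-seq libraries and a pair of ribosome profiling libraries, in which the mRNA stretches protected by ribosomes (footprints) are sequenced, so that 32 libraries were counted. The labels do not give the origin, ploidy or growth phase of the isolates, and no isolate serves as a control, so each was set against the other 7 by the difference from their mean log2 level, and these 8 contrasts share libraries. The study, by its title, concerns variation of translation across genetic backgrounds and how it relates to that of mRNA.

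Trehalose and glycogen are the storage carbohydrates of yeast, and trehalose also protects proteins and membranes under stress. Both are built from UDP-glucose and glucose phosphates. Tps1 makes trehalose 6-phosphate and Tps2 removes the phosphate, in a complex with the regulatory subunits Tps3 and Tsl1, and the neutral trehalase Nth1 splits trehalose into glucose. Glycogen synthases Gsy1 and Gsy2 extend glucose chains, Glc3 adds branches, and the phosphorylase Gph1 and the debranching enzyme Gdb1 release the glucose again. Many of these genes carry stress response elements in their promoters and are known to be expressed together when glucose runs low or under stress.

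The mRNA libraries held 3703931 to 11570247 reads, and the footprint libraries 27621 to 4391002, a 159-fold range. The 10 genes took 0.296% to 1.76% of the mRNA reads and 0.187% to 1.44% of the footprint reads. BAN stood apart. Its footprint libraries were the shallowest, with 63336 and 27621 reads and as few as 5 reads on a single gene of the 10, and their correlation over genes was 0.796 against 0.931 to 0.990 in the other isolates. Its mRNA libraries had TMM factors of 1.001 and 0.695, and the second was higher than the first for all 10 genes. CMP had the next shallowest footprint libraries, with 145164 and 99809 reads. Mitochondrial ORFs took 1.17% to 21.3% of mRNA reads and were highest in CQC. Levels below are CPM, read counts scaled to a common library size after TMM correction of the totals, and a value with ± is a mean and SD over 2 libraries.

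CPI had the highest mean mRNA level of 7 of the 10 genes (8 on a denominator of nuclear reads) and the highest footprint level of 9 of 10 (8 with library totals in place of TMM). Over all genes tested CPI was highest for 9.78% in mRNA and 7.63% in footprints. AMH was lowest for 4 genes in mRNA, beside 16% of all genes, and for 6 in footprints (5 with library totals), beside 10.3%. At the mRNA level NTH1 and GLC3 were highest in CQC (21.2% of all genes were), and GSY1 in BAN (18.7%), while in footprints GLC3 was the one gene highest in CQC (26%). All 10 genes differed across the 8 isolates at the mRNA level (edgeR, Benjamini-Hochberg adjusted p from 5.44e-08 for GPH1 to 4.62e-05 for GSY1), beside 95.7% of the 6269 genes tested. All 10 also differed in footprints, beside 73.1% of 5347 genes, with NTH1 at the highest adjusted p of 0.000176. In TE, the translation efficiency or footprint level relative to mRNA, 2 of the 10 differed, TPS1 (adjusted p = 0.0318) and TPS3 (adjusted p = 0.00525), beside 29.2% of 5337 genes. The TPS1 call was lost on leaving out a single replicate of most isolates, with an adjusted p of 0.125 without AMH replicate 1. In bulk cultures a lower level may mean fewer cells with the mRNA or less of it per cell, which cannot be told apart here.

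**Figure D1:**
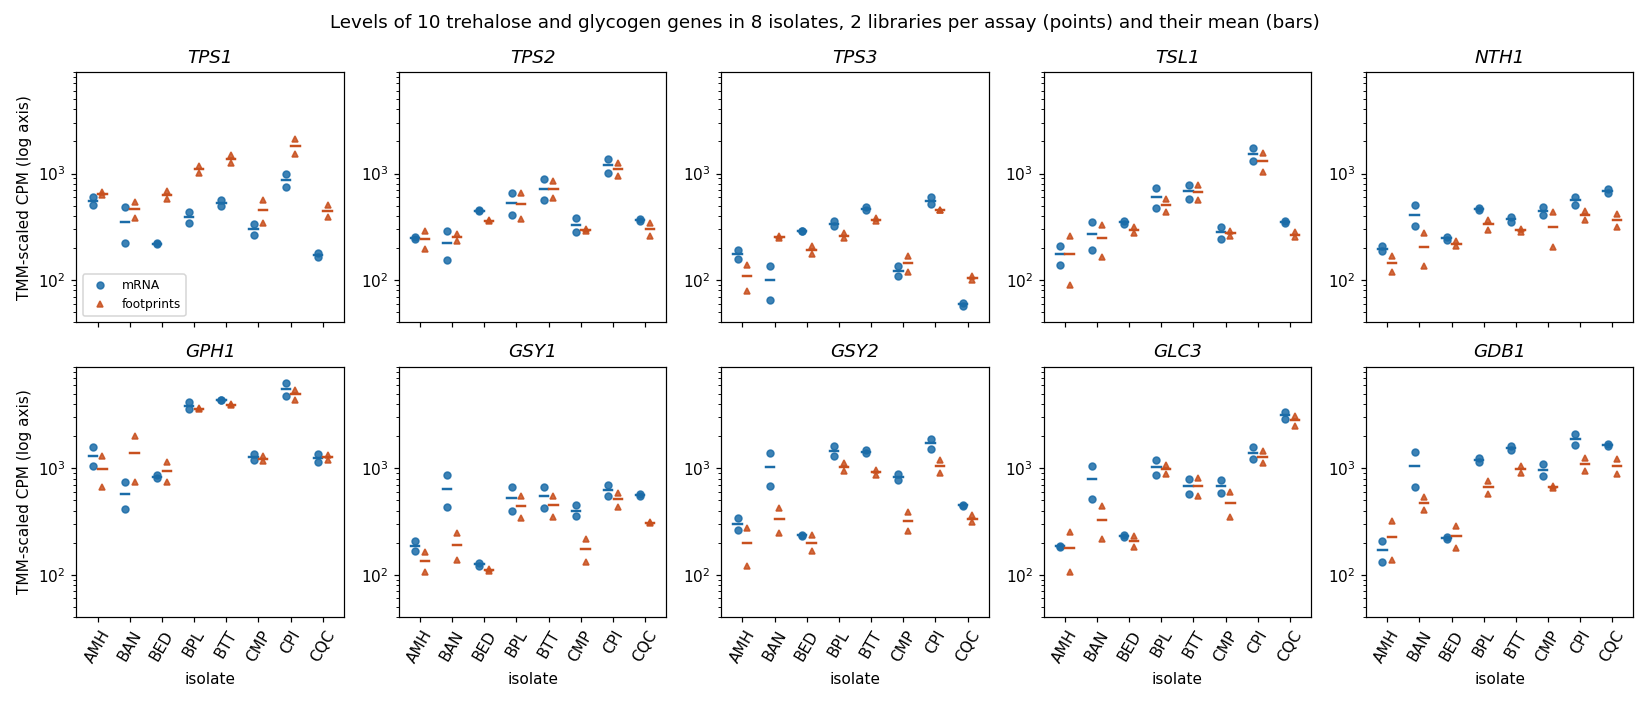
Levels of the 10 genes in TMM-scaled CPM (log axis) by isolate, for mRNA (circles) and footprints (triangles). Points are libraries, 2 per isolate and assay, and bars are their means. CPI holds the highest mRNA mean in 7 panels, and GLC3 in CQC stands at 2927 and 3393 CPM.

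TPS1 encodes the synthase of trehalose 6-phosphate (YBR126C, chromosome II, 488905 to 490392 in the R64 assembly, which sacCer3 denotes, 495 residues). Its mRNA stood at 999.5 and 742 CPM in the 2 CPI libraries, 605 and 504 in AMH, 494 and 570.3 in BTT and 343 and 432 in BPL. It stood at 223 and 484 CPM in BAN, 335 and 267 in CMP, 224 and 216 in BED and 165 and 179 in CQC. Both CPI libraries lay above the other 14, and both CQC libraries below them. Against the mean of the other isolates TPS1 mRNA was higher in CPI by 1.38 ± 0.18 (log2, SE, adjusted p = 1.98e-05), in AMH by 0.64 ± 0.19 and in BTT by 0.57 ± 0.19. It was lower in CQC (-1.29 ± 0.23) and BED (-0.89 ± 0.22). TPS1 footprints stood at 2112 and 1539 CPM in CPI, 665 and 631 in AMH, 678 and 573 in BED and 505 and 389 in CQC. The AMH libraries lay above those of BED in TPS1 mRNA, with no overlap, while the TPS1 footprints of these isolates overlapped.

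TPS2 encodes the trehalose 6-phosphate phosphatase (YDR074W, chromosome IV, 593893 to 596583, 896 residues). Its mRNA was 1377 and 1008 CPM in CPI, 562 and 879.7 in BTT, 406 and 651 in BPL and 446 and 453 in BED. It was 377 and 357 CPM in CQC, 382 and 281 in CMP, 255 and 240.3 in AMH and 154 and 289 in BAN. CPI stood clear of every other library. Below it BPL overlapped both BTT and BED, so its place was not resolved, while both BTT libraries lay above both BED libraries. TPS2 mRNA was higher in CPI (1.65 ± 0.19) and BTT (0.82 ± 0.20) and lower in BAN (-1.13 ± 0.25) and AMH (-0.94 ± 0.24). In footprints TPS2 ran from 242 ± 64.6 CPM in AMH to 1097 ± 223 in CPI (n = 2 each). It was called in the same isolates and directions as in mRNA except for BAN (-0.82, not called in footprints).

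TPS3 and TSL1 encode the large regulatory subunits of the same complex (TPS3, YMR261C, chromosome XIII, 790205 to 793369, 1054 residues, and TSL1, YML100W, chromosome XIII, 70624 to 73920, 1098 residues). They are related in sequence, so reads of one could have been counted for the other, and the treatment of such reads is not given in the sources used here. TPS3 mRNA was 599.9 and 513 CPM in CPI, 452 and 486 in BTT, 319 and 356 in BPL and 289 and 287 in BED. It was 192 and 156 CPM in AMH, 134 and 109.9 in CMP, 65.1 and 134 in BAN and 57.2 and 60.9 in CQC. Apart from CMP and BAN, no 2 neighbours in this order overlapped, and TPS3 mRNA in CPI was 9.42-fold that in CQC. The contrasts were 1.64 ± 0.15 in CPI, 1.36 ± 0.16 in BTT, 0.82 ± 0.16 in BPL and 0.56 ± 0.17 in BED, all higher. TPS3 mRNA was lower in CMP (-0.86 ± 0.19), BAN (-1.21 ± 0.20) and CQC (-2.05 ± 0.21, adjusted p = 5.68e-07).

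TPS3 footprints spanned less, from 104 ± 5.69 CPM in CQC to 454 ± 0.305 in CPI, 4.35-fold. The 2 BAN footprint libraries held 262 and 246 CPM, from 19 and 9 reads. These levels overlapped those of BPL (246 and 278 CPM), whereas both BAN libraries lay below both BPL libraries in TPS3 mRNA.

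TSL1 mRNA was 1749 and 1300.0 CPM in CPI, 581 and 785 in BTT, 479.7 and 735 in BPL and 343 and 362 in CQC. It was 361 and 335 CPM in BED, 317 and 243 in CMP, 189.8 and 351 in BAN and 210.0 and 138 in AMH. CPI was again clear of the rest, and of the 10 genes TSL1 had the largest CPI contrast, 2.12 ± 0.18 in mRNA (adjusted p = 3.87e-07) and 2.04 ± 0.19 in footprints. TSL1 mRNA was also higher in BTT (0.79 ± 0.20) and BPL (0.60 ± 0.21), and lower in AMH (-1.46 ± 0.25), BAN (-0.74 ± 0.24) and CMP (-0.68 ± 0.23). CQC, the lowest isolate for TPS3, was not called for TSL1 (-0.30 ± 0.22, adjusted p = 0.247). Expressed per coding length, TSL1 made up 85.1% ± 0.0819 of the summed TSL1 and TPS3 mRNA in CQC and 48.5% ± 3.73 in AMH (n = 2 each), with the other isolates between 53.7% and 72.6%. In footprints the TSL1 share was 71.1% ± 2.58 in CQC, below the mRNA share in both libraries, and overlapped that of CPI (72.8% ± 5.70).

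NTH1 encodes the main neutral trehalase (YDR001C, chromosome IV, 450220 to 452475, 751 residues). Its mRNA was 721 and 663 CPM in CQC, 607 and 509.6 in CPI, 453 and 475 in BPL and 487 and 405 in CMP. It was 322 and 502 CPM in BAN, 352 and 393 in BTT, 251 and 240.2 in BED and 209 and 186 in AMH. NTH1 had the smallest range of the 10 genes, 3.50-fold between CQC and AMH, and BPL, CMP, BAN and BTT overlapped as neighbours. NTH1 mRNA was higher in CQC (0.92 ± 0.13, adjusted p = 1.16e-05) and CPI (0.57 ± 0.13) and lower in AMH (-1.14 ± 0.15) and BED (-0.78 ± 0.15). So CQC had the highest NTH1 mRNA and the lowest TPS1 and TPS3 mRNA of the 8 isolates, while TPS2 (-0.29) and TSL1 (-0.30) were not called there. In footprints NTH1 was called in CPI (0.65 ± 0.17) and AMH (-1.14 ± 0.22), and the CQC libraries, at 417 and 315 CPM, overlapped those of CPI at 445 and 370.

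Glycogen synthase has a pair of isoenzymes, GSY1 (YFR015C, chromosome VI, 174265 to 176391, 708 residues) and GSY2 (YLR258W, chromosome XII, 660716 to 662833, 705 residues), of which Gsy2 is the major form. As for TSL1 and TPS3, the pair is related in sequence and shared reads cannot be assigned with certainty. GSY2 mRNA was 1891 and 1531 CPM in CPI, 1303 and 1619 in BPL, 1381 and 1472 in BTT and 681 and 1384 in BAN. It was 879.7 and 782 CPM in CMP, 441 and 455 in CQC, 342 and 262 in AMH and 235 and 233 in BED. From CPI down to CMP the libraries overlapped from neighbour to neighbour, and CQC, AMH and BED lay below and apart. GSY2 was higher in CPI (1.37 ± 0.17), BPL (1.11 ± 0.17), BTT (1.07 ± 0.17) and BAN (0.53 ± 0.18), and lower in BED (-1.91 ± 0.22), AMH (-1.49 ± 0.21) and CQC (-0.84 ± 0.20).

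GSY1 mRNA was 431 and 861 CPM in BAN, 703 and 555 in CPI, 553 and 569 in CQC and 426 and 669.9 in BTT. It was 399 and 663 CPM in BPL, 449 and 354 in CMP, 166 and 208 in AMH and 122 and 130.3 in BED. The first 6 of these isolates overlapped from neighbour to neighbour, and with library totals in place of TMM the highest was CPI (nuclear ORFs) or BTT (all ORFs). GSY1 was higher in BAN (0.80 ± 0.22, adjusted p = 0.00491), CPI (0.76 ± 0.22, adjusted p = 0.00844) and CQC (0.57 ± 0.22, adjusted p = 0.0310), and lower in BED (-1.89 ± 0.27) and AMH (-1.24 ± 0.26). In CQC, by contrast, GSY2 was lower. GSY2 made up 44.5% ± 0.0535 of the pair per coding length in CQC mRNA, against 61.6% to 73.8% in the other 7 isolates. In footprints the GSY2 share was 52.2% ± 2.98 in CQC and 58.3% to 70.6% elsewhere, where the AMH libraries (62.9% and 53.6%) overlapped those of CQC (54.3% and 50.1%).

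**Figure D2:**
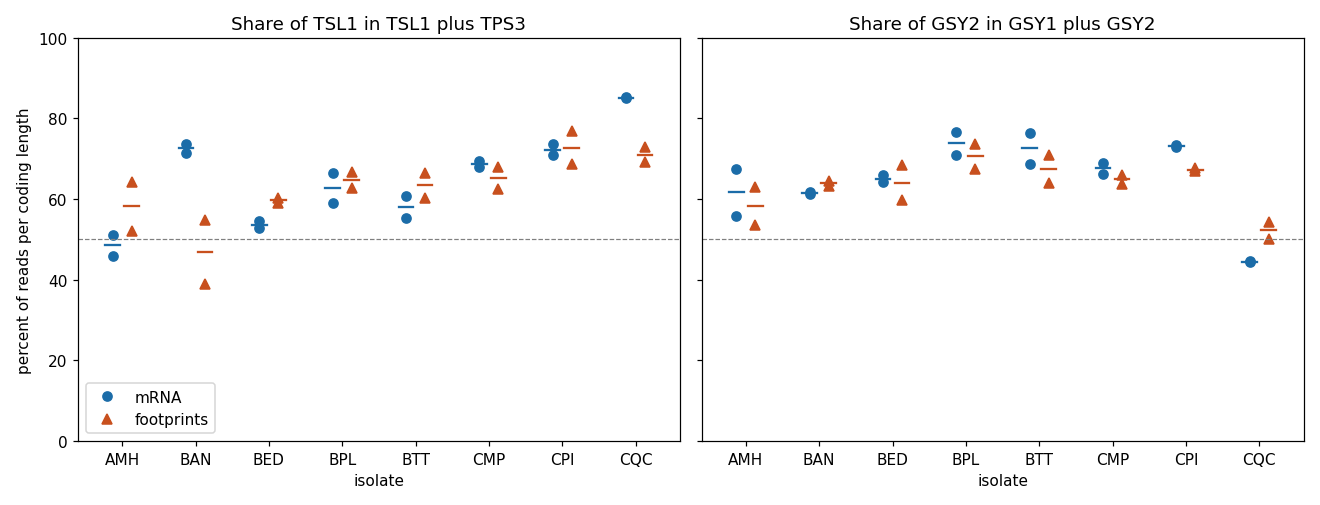
Share of TSL1 in TSL1 plus TPS3 and of GSY2 in GSY1 plus GSY2, in percent of reads per coding length, by isolate. Points are libraries (circles mRNA, triangles footprints), bars are means of 2, and the dashed line marks equal shares. In mRNA CQC lies highest in the first panel at 85.1% and lowest in the second at 44.5%.

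GLC3 encodes the glycogen branching enzyme (YEL011W, chromosome V, 133120 to 135234, 704 residues) and had the widest range of the 10 genes. Its mRNA was 2927 and 3393 CPM in CQC, 1584 and 1215 in CPI, 858 and 1207 in BPL and 515 and 1057 in BAN. It was 579 and 787 CPM in BTT, 773 and 588 in CMP, 228 and 235 in BED and 187 and 183 in AMH. CQC lay above every other library, and BED and AMH below every other. The mean in CQC was 17.1-fold that in AMH in mRNA and 15.6-fold in footprints. GLC3 was higher in CQC by 2.44 ± 0.17 in mRNA (adjusted p = 1.02e-08) and by 2.58 ± 0.18 in footprints (adjusted p = 3.03e-12). It was higher in CPI (1.10 ± 0.19) and BPL (0.60 ± 0.20), and lower in AMH (-2.24 ± 0.25) and BED (-1.87 ± 0.25). GLC3 footprints were 3107 and 2518 CPM in CQC, 1440.4 and 1122 in CPI, 230.5 and 184 in BED and 253 and 107 in AMH.

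GPH1, the glycogen phosphorylase (YPR160W, chromosome XVI, 861306 to 864014, 902 residues), was the most abundant of the 10 per coding length, with a mean over isolates of 880 CPM per kb in mRNA and 846 in footprints. The other 9 had 83.2 (TPS3) to 482 (GLC3) CPM per kb in mRNA. GPH1 mRNA was 6271 and 4822 CPM in CPI, 4347 and 4381 in BTT, 3601 and 4171 in BPL and 1595 and 1041 in AMH. It was 1362 and 1205 CPM in CMP, 1148 and 1358 in CQC, 861 and 811 in BED and 413 and 747 in BAN. The isolates fell into CPI, BTT and BPL, all at 3601 CPM or more, and the other 5, all at 1595 CPM or less. All 8 contrasts passed the test, with CPI (1.88 ± 0.16, adjusted p = 3.57e-07), BTT (1.49 ± 0.17) and BPL (1.30 ± 0.17) higher. BAN (-1.84 ± 0.22), BED (-1.24 ± 0.21), CQC (-0.57 ± 0.20), CMP (-0.53 ± 0.20) and AMH (-0.49 ± 0.20) were lower. In footprints CPI, BTT and BPL again lay above the rest, at 5442 and 4422, 3977 and 3936 and 3649 and 3613 CPM.

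GDB1, the debranching enzyme (YPR184W, chromosome XVI, 902044 to 906654, 1536 residues), had mRNA levels of 2091 and 1649.9 CPM in CPI, 1623 and 1684 in CQC, 1628 and 1475 in BTT and 1135 and 1244 in BPL. It had 662 and 1435 CPM in BAN, 1088 and 846 in CMP, 226 and 216 in BED and 208 and 133 in AMH. BED and AMH lay apart from the 6 others, whose lowest library held 662 CPM. GDB1 was lower in AMH by -2.61 ± 0.27 (adjusted p = 9.07e-07), the largest mRNA contrast of the 10 genes, and in BED by -2.17 ± 0.26. It was higher in CPI (1.35 ± 0.19), CQC (1.14 ± 0.19), BTT (1.04 ± 0.20) and BPL (0.60 ± 0.20). The fold between the highest and lowest mean was 10.98 in mRNA and 4.82 in footprints. In footprints the CPI, CQC and BTT libraries overlapped, and CQC became the highest isolate and BED the lowest when library totals replaced TMM.

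Counted by isolate, all 10 genes were higher in CPI in mRNA (31.4% of all genes were higher there) and all 10 in footprints (17.7%). The CPI count in mRNA did not hold in every fit that left out 1 replicate. In BTT 7 were higher in mRNA (32.9%) and 8 in footprints (18.7%), and in BPL 6 in mRNA (27.6%) and 5 in footprints (16.1%), with none lower in CPI (22.4% of all genes lower in mRNA, 12% in footprints), BTT (19.9% and 13.2%) or BPL (19.1% and 9.07%). The BTT count in mRNA was 4 without BTT replicate 2, and the BPL count was 3 without BPL replicate 2 or without BTT replicate 1. In AMH 8 genes were lower in mRNA (30.4%) and 9 in footprints (14%), and TPS1 was the one gene higher in mRNA (33.4%), a call lost without AMH replicate 1, with none higher in footprints (19.9%). In BED 7 were lower in mRNA (29.5%) and 5 in footprints (13.9%), the latter being all 5 glycogen genes, and none was higher in footprints (20.8%). TPS3 was the one gene higher in BED mRNA (32.8%), and that call was lost on leaving out either BED replicate or both BAN and CMP. Median contrasts of the 10 genes in mRNA were 1.38 in CPI, 0.81 in BTT, 0.60 in BPL, -1.06 in BED and -1.19 in AMH, beside medians of -0.02 to 0.07 over all genes tested in these isolates.

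CQC, BAN and CMP showed no such common direction. In CQC 4 genes were higher in mRNA (NTH1, GSY1, GLC3 and GDB1, beside 35.6% of all genes) and 4 were lower (TPS1, TPS3, GPH1 and GSY2, beside 37.2%). In footprints GLC3 and GDB1 were higher (26.2%), and TPS1, TPS3 and GPH1 lower (23.3%). The summed level of the 5 glycogen genes was 7.44 ± 0.479 times that of the 4 trehalose synthase genes in CQC mRNA, and 1.26 ± 0.00478 to 4.40 ± 0.437 times in the other isolates. Of the mean glycogen sum of 7075 CPM in CQC mRNA, GLC3 alone held 3160 CPM, while GPH1 and GSY2 were lower there. Mitochondrial ORFs took 21.3% and 19.2% of the CQC mRNA reads, and on a denominator of nuclear reads alone CQC stayed the lowest isolate for TPS1 and TPS3 and the highest for NTH1 and GLC3. In BAN mRNA 2 genes were higher (GSY1 and GSY2, beside 34% of all genes) and 4 lower (TPS2, TPS3, TSL1 and GPH1, beside 33.1%). The count of higher genes in BAN was 5 without its first replicate and 0 without its second. No gene was called in BAN footprints, where 3.25% of all genes were higher and 0.954% lower. In CMP mRNA 3 genes were lower (TPS3, TSL1 and GPH1, beside 26.2%) and none higher (27.6%), and in footprints TPS1 and GPH1 were lower (7.29%) and none higher (11.4%). Without BAN, 3 genes were higher and 5 lower in CMP mRNA, and without either CMP replicate 1 was lower.

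**Figure D3:**
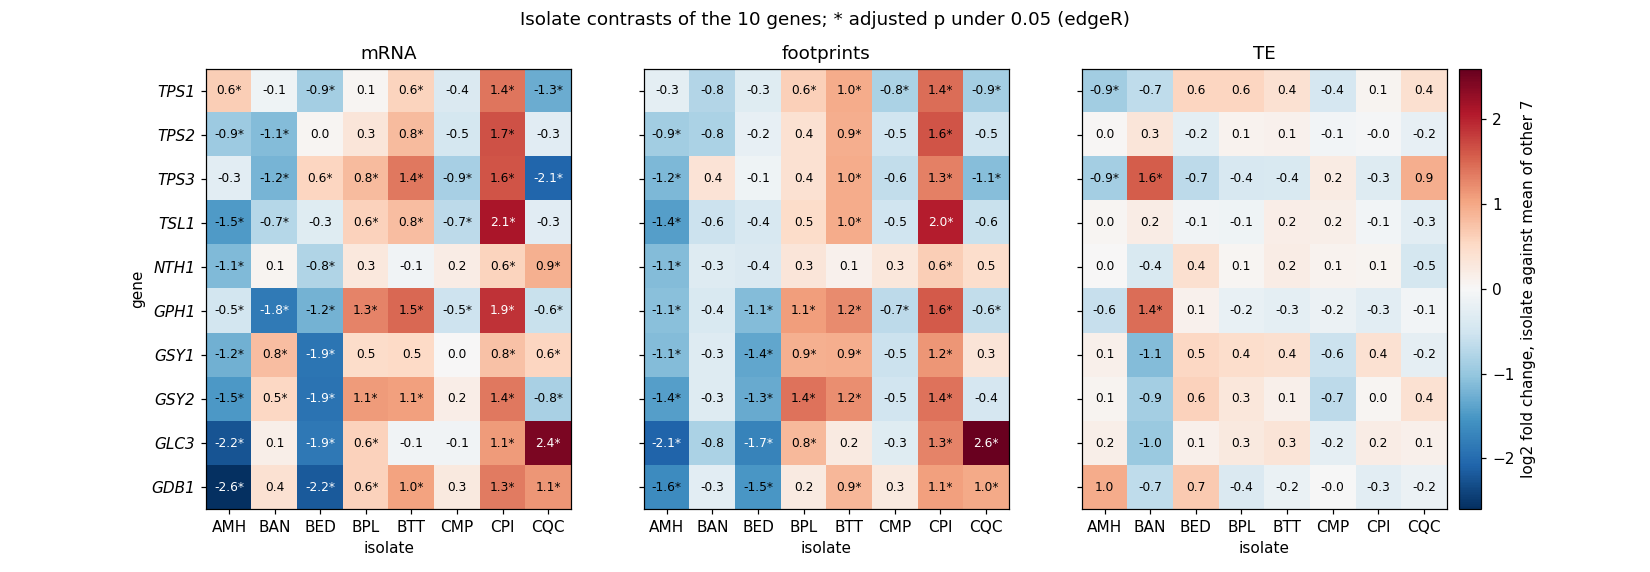
Log2 fold change of each gene (rows) in each isolate (columns) against the mean of the other 7, for mRNA, footprints and TE. Asterisks mark an adjusted p under 0.05 (edgeR, adjusted over all genes). The CPI column is higher for all 10 genes in mRNA and footprints, and CQC mixes higher GLC3 (2.44 in mRNA) with lower TPS3 (-2.05).

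Footprint levels followed mRNA levels closely for these genes. Over the 8 isolate means the correlation of log2 footprints with log2 mRNA had a median of 0.914 over the 10 genes, from 0.762 for TPS3 to 0.991 for TSL1, beside a median of 0.707 over the 5337 genes tested in TE. The points are the same 8 isolates for every gene. The slope of footprints on mRNA had a median of 0.80 for the 10 genes and 0.74 for all genes, and was lowest for TPS3 (0.53) and GDB1 (0.69). The log2 span between the highest and lowest isolate had a median of 2.99 in mRNA for the 10 genes against 1.703 over all genes, and 2.27 against 2.34 in footprints. The all-gene medians were not matched to the 10 genes on level. They also rest on the shallow BAN and CMP footprint libraries (27621 to 145164 reads), and the part of depth in these differences was not tested.

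**Figure D4:**
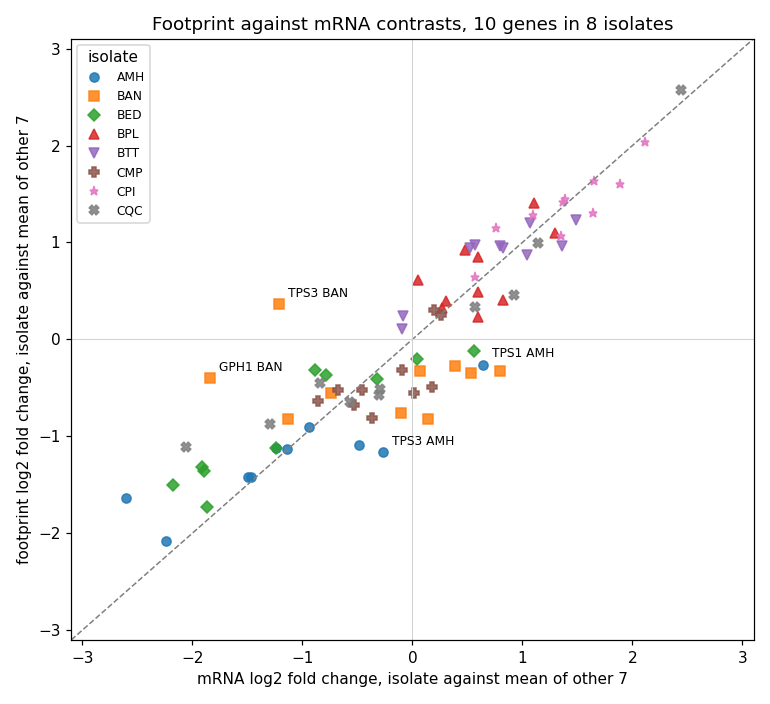
Footprint against mRNA contrast (log2 fold change, isolate against the mean of the other 7) for the 10 genes in the 8 isolates. The dashed line marks equal contrasts, and the 4 labelled points are those whose TE contrast passed the test, among them GPH1 in BAN at -1.84 in mRNA.

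In TE 4 of the 80 gene and isolate contrasts passed the test, 2 higher and 2 lower, beside 3.62% higher and 3.98% lower over all genes. The ratio of footprint to mRNA CPM averaged 2.11 ± 0.698 over the 8 isolates (SD) for TPS1 and 0.618 to 1.14 for the other 9 genes, beside a median of 0.724 over all genes. TPS1 had the highest ratio of the 10 in 6 isolates, and its lowest were in AMH (1.17) and BAN (1.30). In AMH the TE of TPS1 was lower by -0.90 ± 0.28 (adjusted p = 0.0393) and that of TPS3 by -0.89 ± 0.28 (adjusted p = 0.0421), beside 6.01% of all genes. Both were lost with another scaling (RLE, adjusted p = 0.0507 and 0.056) and on leaving out either AMH replicate. In BAN the TE of TPS3 was higher by 1.57 ± 0.41 (adjusted p = 0.00919) and that of GPH1 by 1.44 ± 0.36 (adjusted p = 0.00624), beside 7.12% of all genes. GPH1 footprints in BAN were 2026 and 738 CPM, from 147 and 27 reads, and the GPH1 value was 0.04 without BAN replicate 1 and 2.37 without replicate 2. The TPS3 value was 1.02 (adjusted p = 0.346) without BAN replicate 1. In the other 6 isolates none of the 10 genes was called in TE.

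The 10 genes did not share one profile over the isolates. Over the 45 pairs of genes the correlation of the 8 isolate means of log2 mRNA had a median of 0.521 and ran from -0.233 to 0.982. It had a median of 0.711 within the 4 trehalose synthase genes, 0.745 within the 5 glycogen genes, and 0.482 between these groups. The trehalase NTH1 had a median of 0.836 with the glycogen genes and 0.107 with the trehalose synthase genes. GPH1 mRNA correlated at 0.665 to 0.86 with the trehalose synthase genes and at 0.318 to 0.679 with the other glycogen genes. In footprints the median over all pairs was 0.786, and the groups were less apart. There the medians were 0.865 within trehalose synthase, 0.829 within glycogen and 0.751 between them. NTH1 footprints had 0.783 with the glycogen and 0.544 with the trehalose synthase genes. Each gene was also set against the mean of the other 9, where TSL1 was nearest (0.887) and TPS3 farthest (0.403). All these values rest on the same 8 points.

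The other genes of the pathway were read from a list of 24 that supply precursors, start glycogen chains, degrade trehalose or glycogen elsewhere in the cell, or regulate these enzymes. All 24 differed across isolates in mRNA, 19 of the 23 tested in footprints and 9 of 23 in TE. Over all genes tested 95.7%, 73.1% and 29.2% differed. In mRNA 63 of 192 isolate contrasts were higher and 56 lower, beside 31.9% and 27.2% over all genes, where the 10 main genes had 31 higher and 26 lower of 80. In footprints 46 of 184 were higher and 37 lower (16.8% and 11.7% over all genes), against 25 and 19 of 80 for the 10. CQC had most calls, 14 higher and 8 lower in mRNA, beside 35.6% and 37.2% of all genes.

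Of the 6 listed genes on the way from glucose to UDP-glucose, grouped after their values were seen, 5 were lower in CQC mRNA and the glucokinase GLK1 was not called (0.06). The phosphoglucomutase PGM1, which interconverts glucose 6-phosphate and glucose 1-phosphate, was lower there by -3.94 ± 0.23 and the hexokinase HXK2 by -3.31 ± 0.14. UGP1, the maker of UDP-glucose, and the second phosphoglucomutase PGM2 were lower in CQC too, by -2.13 and -1.56. HXK1, a second hexokinase, was higher in CMP by 2.30 ± 0.20 and lower in CQC by -2.30. The 5 listed genes that prime glycogen or degrade glycogen and trehalose, also grouped after their values were seen, were all higher in CQC mRNA, GLG1 by 1.05. Over all genes 35.6% were higher and 37.2% lower in CQC mRNA. The glycogenin GLG2, which primes glycogen, was higher by 2.95 ± 0.11, the glucoamylase SGA1, known from sporulation, by 2.65 ± 0.19, and the neutral trehalase NTH2 by 2.36 ± 0.087. ATH1, the acid trehalase, was higher in CQC by 2.47 and lower in AMH by -2.82 ± 0.24. With NTH1, all 3 trehalase genes were thus higher in CQC (35.6% of all genes) and lower in AMH (30.4%) and BED (29.5%) in mRNA. In footprints NTH1 was not called in CQC (0.46) or BED (-0.37), nor NTH2 in AMH (-0.62) or BED (-0.20). ATH1 in these isolates, NTH1 in AMH and NTH2 in CQC were called in footprints in the mRNA direction. PIG2, a targeting subunit of the Glc7 phosphatase that acts on glycogen synthase, was higher in CQC by 2.90 ± 0.17, and GAC1, another such subunit, was higher there by 2.41 and lower in BED by -3.45 ± 0.27. DCS2, a stress-induced relative of the scavenger decapping enzyme, was lower in AMH by -2.21 ± 0.25 and higher in CQC by 1.81.

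Since the 10 genes are known as stress-responsive, 14 general stress genes were read beside them. All 14 differed across isolates in mRNA and in footprints, and 9 in TE, beside 95.7%, 73.1% and 29.2% of all genes. In mRNA 11 were lower and 1 higher in AMH (30.4% of all genes were lower, 33.4% higher). In BED 10 were lower and 1 higher (29.5% and 32.8%), and in CPI 9 were higher and 2 lower (31.4% and 22.4%). In these isolates most of the 10 genes were called in the same direction. Elsewhere the mRNA calls of the 2 sets were unlike. In BTT 9 stress genes were lower and none higher (19.9% lower, 32.9% higher), where 7 of the 10 genes were higher. In BAN 11 were higher and none lower (34% higher, 33.1% lower), where 2 of the 10 were higher and 4 lower. In CMP 10 were higher and 1 lower (27.6% and 26.2%), where 3 of the 10 were lower. In CQC 9 were higher and 2 lower (35.6% and 37.2%), where the 10 genes had 4 of each. In BPL 4 were higher and 5 lower (27.6% and 19.1%), where 6 of the 10 were higher. The hydrophilin GRE1 was higher in CQC by 6.07 ± 0.13 and lower in BTT by -5.95, and its relative SIP18 was higher in CQC by 5.14 ± 0.15 and lower in BTT by -5.08. HSP12, a membrane-protecting stress protein, was lower in BTT by -5.30 ± 0.28. SPI1, a cell wall protein, was higher in BAN by 3.74 ± 0.15. The median contrast of the stress genes in BTT mRNA was -1.13 against 0.81 for the 10 genes. In BTT footprints 8 stress genes were lower and 2 higher (13.2% and 18.7% of all genes). In BAN footprints 1 was higher and none lower (3.25% and 0.954%), and in CMP footprints 4 were higher and 2 lower (11.4% and 7.29%).

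Genes of like pattern were looked for among 5075 genes with a symbol and at least 5 CPM in mRNA, by Pearson's r over the 8 isolates with the mean centred profile of the 10. That profile was highest in CPI (1.21) and lowest in AMH (-0.98) on the log2 scale. The nearest were HOL1, a membrane transporter (r = 0.941), GSP2, a Ran GTPase (0.932), OSH2, an oxysterol-binding protein homologue (0.929), YCX1 (0.921) and CYR1, the adenylate cyclase (0.914). In footprints the same genes gave 0.596, 0.672, -0.288, 0.209 and -0.368 with the mean footprint profile. The likeness in mRNA was thus not seen there for OSH2 and CYR1, and was slight for YCX1. The most opposed were the elongation factor subunit SPT4 (-0.965), TRM112, a partner of methyltransferases (-0.957), and the ESCRT-related DID2 (-0.919). Their footprints gave -0.0654, -0.69 and -0.233 with the mean footprint profile, so the opposition of SPT4 was not seen there. With 8 points and this many candidates such values are a description of these isolates.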

How the data were processed

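Messenger RNA and ribosome footprints were counted in 8 isolates, 2 libraries per isolate and assay. The authors deposited whole-number read counts per ORF, with no normalization. The submitters' processing notes name STAR 2.7.0a, CASAVA 1.8 and the build sacCer3, and per the labels' protocols the RNA-seq kit was stranded and rRNA was depleted from footprints. How strand and multiply mapped reads were treated in counting is not given in the sources used here. A coding length that the tables also hold was not used; lengths came from the R64 gene table, matched by systematic name for all 10 genes.

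Counts were fitted over all genes in R 4.3.3 with edgeR 4.0.16 (filterByExpr, minimum count 10; TMM within each assay; quasi-likelihood F-test; Benjamini-Hochberg threshold 0.05). TE was tested by the assay-by-isolate interaction, with all 32 libraries in 1 model. Alternatives were RLE scaling, DESeq2 1.42.0, no filter, a replicate block, leaving out each replicate, and leaving out BAN or BAN and CMP. Fits were tested on simulated data. Printed CPM use TMM-scaled totals, so that levels and tests share 1 scale; this, and the alternative with totals of all ORFs, was chosen after seeing the data. Isolates were called separate from a neighbour only where their libraries did not overlap. Correlations and the like-pattern search used log2 CPM with a prior count of 2.

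The 10 genes, the other lists and the naming rule were chosen with earlier results of these data known. The rule named, by largest called mRNA contrast, up to 10 of the other pathway genes and 4 of the stress genes, and the 5 genes most like and 3 least like the mean profile. Whether replicates came from separate cultures is not stated in the labels, and the p-values cover only the spread of the libraries at hand, which may be technical. Replicate pairs had a chi-square per degree of freedom of 2.04 to 30.5 on raw totals, so each pair differed by more than sampling noise. This does not tell technical repeats from separate cultures. No gene record overlaps any of the 10. ORFs without a gene record hold 0.379% of reads.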

Additional observations from a re-analysis of the deposited data

Results flagged for a closer look

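Footprint and mRNA contrasts of a gene differed in 4 cases, by the interaction term of assay and isolate in edgeR (Benjamini-Hochberg adjusted over 5337 genes). In AMH the footprint difference was below the mRNA difference by -0.90 for TPS1 (adjusted p = 0.0393) and by -0.89 for TPS3 (adjusted p = 0.0421), on the log2 scale. Leaving out 1 replicate of any isolate in turn, the TPS1 call was lost in 13 of 16 fits and the TPS3 call in 14 of 16, with adjusted p up to 0.274 and 0.474, while the differences stayed at -0.98 to -0.74 for TPS1 and at -1.10 to -0.57 for TPS3. AMH mRNA was higher for TPS1 (0.64) and not called for TPS3 (-0.27), and AMH footprints were not called for TPS1 (-0.26) and lower for TPS3 (-1.17).

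In BAN the footprint difference was above the mRNA difference by 1.57 for TPS3 (adjusted p = 0.00919) and by 1.44 for GPH1 (adjusted p = 0.00624). Both calls were lost in 1 of 16 such fits, the one without BAN replicate 1, where TPS3 stood at 1.02 (adjusted p = 0.346) and GPH1 at 0.04 (adjusted p = 1). The BAN footprint libraries held 19 and 9 reads on TPS3 and 147 and 27 on GPH1, and the part of this depth in the result was not tested.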

How the results depend on the processing

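The counts of 10 genes differing across isolates in mRNA and in footprints held under every alternative run. In TE, DESeq2 gave 4 higher contrasts in place of 2, RLE scaling 0 lower in place of 2, and fits without BAN, or without BAN and CMP, 1 higher each. Without BAN, 3 genes were higher and 5 lower in CMP mRNA in place of 0 and 3, and without BAN and CMP, 0 in place of 1 were higher in BED mRNA. Of the 5 genes most like the mean profile, 1 was also in the first 5 by Spearman's rho, and all 5 in the first 100. The largest contrast of each gene in mRNA, footprints and TE, and the called TE contrasts, kept their direction in the fits that held them. The directions of the other contrasts were not compared. The cause of the changes above was not tested.

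Leaving out 1 replicate in turn gave 1 to 3 genes differing in TE and 0 to 3 lower and 2 to 3 higher TE contrasts. In mRNA it gave 0 to 1 genes higher in AMH, 0 to 5 in BAN, 0 to 1 in BED, 3 to 8 in BPL, 4 to 8 in BTT and 0 to 2 in CMP, and 1 to 5 lower in CMP. The mRNA counts of higher genes in CPI and CQC did not hold in all of these fits either. The lone library left is then assumed to vary like the other isolates. Of 80 comparisons of CPM levels with other library totals, 64 moved by less than the replicate SD and 16 by more. Footprint depth limits BAN most, with 5 to 147 reads per gene.

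Pairing by replicate number rests on a number alone. Deviations of same-numbered mRNA and footprint libraries correlated at 0.0801 (BAN) to 0.727 over 1362 genes, above 0.1 in 7 of 8 isolates. With a replicate block the TE model called 6 genes across isolates (GSY1, GPH1, GSY2 and GDB1 beside TPS1 and TPS3), 9 higher and 6 lower contrasts.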
